A study of Drosophila melanogaster with 6 samples.

Results

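The chemosensory receptor genes of *Drosophila melanogaster* were examined in heads of flies aged 30d and 3d. A gene was taken as a member when its FlyBase symbol was *Orco*, or began with Or, Gr or Ir followed directly by a digit. This gave 187 of the 17492 genes in the count table, 61 in the Or family (with *Orco*), 60 in the Gr family and 66 in the Ir family. Of the 187 genes, 180 were annotated as protein coding and 7 as pseudogenes. The series holds polyA-selected RNA from dissected heads of strain 5905, with 3 libraries of 30d flies and 3 libraries of 3d flies, untreated and of the same genotype as far as the labels give it. The study's methods describe this line as wild type with a white-eye mutation, and the ageing of male flies, without naming the sex of the heads used for RNA. The number of heads pooled per library, and whether the replicates came from separate cultures, are not given in the sources used here, so the p-values measure the spread between these libraries, which may be partly technical. The comparison asks which genes differ between the ages. Whole heads carry the antennae, the maxillary palps and the labellum together with the brain, the eyes, fat and muscle, so that receptor neurons give a small share of the RNA, and fewer cells of a type cannot be told apart from less RNA per cell.

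Insect odorant receptors of the Or family work as ion channels built from a tuning receptor, which sets the odors detected, and the shared coreceptor Orco. Ionotropic receptors of the Ir family are relatives of ionotropic glutamate receptors, and pair a tuning subunit with the coreceptors Ir8a, Ir25a, Ir76b or Ir93a to detect acids, amines, temperature, humidity and tastants. Gustatory receptors of the Gr family detect sugars, bitter compounds and, in the antenna, carbon dioxide.

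The libraries held between 3479385 and 3544615 counts on genes at 30d and between 3176380 and 3741860 counts at 3d. At this depth the receptors were close to the limit of detection. No count was seen for 43 of the 187, while 58 had 1 to 5 counts over the 6 libraries, 53 had 6 to 29 counts and 33 had 30 or more. A count of 0 in all 3 libraries of an age allows a level of up to 0.277 CPM at 30d and 0.297 CPM at 3d (3 counts over the group, CPM being counts per 1000000 after TMM scaling, counting error only). For 7 of the 43 genes without counts, among them *Or10a*, *Gr10a*, *Gr64b* and *Gr64c*, every exon base overlaps another gene in the annotation used here, and the counting rule leaves such genes no countable read. Related pairs such as *Or22a* and *Or22b* may be uncertain too, since reads that map to both could have been dropped. This was not tested.

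The depth also set what could be tested. edgeR's filter kept 8773 of all genes, and 19 of the 187 receptor genes were among them, 8 Or genes, 1 Gr gene and 10 Ir genes. The remaining 168 are described by their counts. By edgeR's quasi-likelihood test, with p-values adjusted over these 8773 genes by the Benjamini-Hochberg method, 3 receptor genes had an adjusted p under 0.05, and all 3 were higher at 30d. Over all genes tested, 14.4% were called higher and 16.1% lower at 30d, 30.4% in either direction. The 3 genes were *Ir75a*, *Ir75b* and *Ir76a*, tuning receptors of the antenna. In each of them every 30d library lay above every 3d library, a separation that 22.3% of the genes tested showed in that direction.

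**Figure D1:**
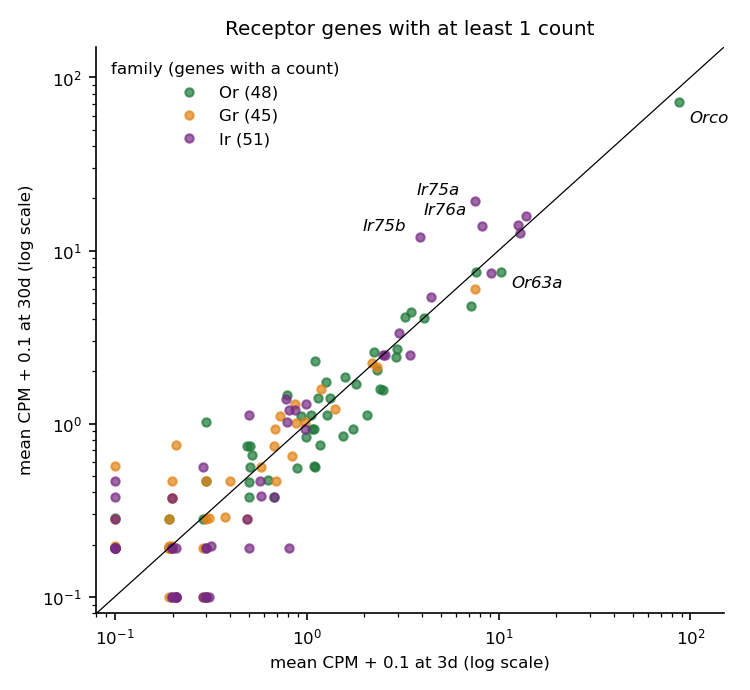
Mean CPM of each receptor gene with at least 1 count at 30d (vertical axis) against 3d (horizontal axis), both with 0.1 added and on log scales, colored by family, with a line of equal level. *Orco* stands apart as the highest, and *Ir75a*, *Ir75b* and *Ir76a* lie above the line.

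*Ir75a* (FBgn0036757) encodes a receptor for acetic acid and acts with Ir8a in neurons of the coeloconic sensilla. It lies on the minus strand of chromosome 3L (dm6, 17815570 to 17817921) and has 7 exon blocks with 1982 exon bases. It had 63, 81 and 64 counts in the 30d libraries, against 14, 31 and 31 counts in the 3d libraries. The lowest 30d library thus had about as many counts as the highest pair of 3d libraries combined. After scaling, *Ir75a* averaged 19.2 ± 2.61 CPM at 30d and 7.40 ± 2.46 CPM at 3d (SD, n = 3 each). The log2 fold change was 1.35 (SE 0.22, adjusted p = 6.07e-04, edgeR quasi-likelihood test), a fold of 2.55 with a 95% interval of 1.84 to 3.52. Of all 8773 genes tested, 0.957% were called higher with a fold change at least as large.

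*Ir75b* (FBgn0261402) is the next gene along the chromosome and also detects carboxylic acids (3L, 17818073 to 17820193, minus strand). It had 34, 42 and 52 counts at 30d, against 7, 13 and 19 counts at 3d. The ages did not overlap, and the 3d libraries differed among themselves more than the 30d libraries did in relative terms. *Ir75b* averaged 11.8 ± 2.82 CPM at 30d and 3.82 ± 1.68 CPM at 3d (SD, n = 3 each). The log2 fold change was 1.61 (SE 0.29, adjusted p = 0.00142, edgeR quasi-likelihood test), the largest of the 19 receptor genes tested.

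*Ir75a* and *Ir75b* kept a similar proportion to each other at both ages. There were 1.85, 1.93 and 1.23 *Ir75a* counts per *Ir75b* count at 30d, against 2, 2.38 and 1.63 at 3d, and the ages overlapped. The third gene of the cluster, *Ir75c*, behaved differently in level, with 2, 1 and 1 counts at 30d and 0, 3 and 2 counts at 3d, too few for a test. It lies only 299 bases from *Ir75b* on the same strand, and *Ir75a* and *Ir75b* are 151 bases apart. The other neighbors of the cluster were lower at 30d. *Cln3*, 1450 bases beyond *Ir75a* on the same strand and the fly counterpart of a lysosomal disease gene, averaged 13.7 ± 2.01 CPM at 30d and 26.7 ± 2.21 CPM at 3d (SD, n = 3 each; log2 fold change -0.97, adjusted p = 4.38e-04, edgeR quasi-likelihood test). *Grd*, which encodes a subunit of the ligand-gated chloride channel family and lies 498 bases from *Ir75c* on the opposite strand, fell by 0.96 on the log2 scale (adjusted p = 0.00771, same test).

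**Figure D2:**
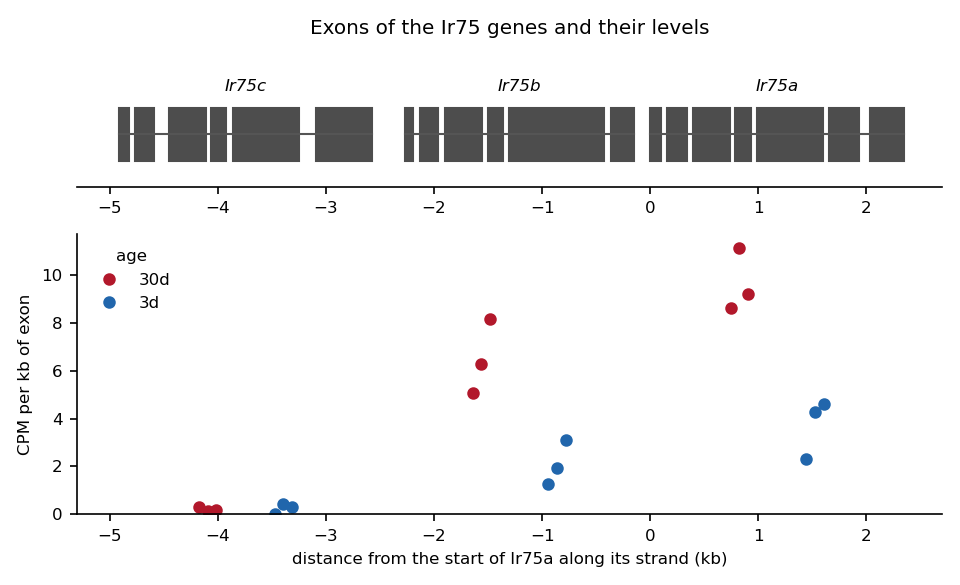
Top, exons (boxes) of *Ir75c*, *Ir75b* and *Ir75a* by distance in kb from the start of *Ir75a*, read along their shared strand. Bottom, CPM per kb of exon in each library placed by gene, 30d left of 3d; *Ir75a* and *Ir75b* are higher in every 30d library, and *Ir75c* is near 0 at both ages.

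*Ir76a* (FBgn0260874) encodes a receptor for amines that acts with Ir25a and Ir76b. It lies on the same chromosome arm, 1.98 Mb from *Ir75a* (3L, 19799278 to 19803427, plus strand). It had 58, 44 and 48 counts at 30d, against 25, 30 and 27 counts at 3d. The 3d libraries were close together at 7.98 to 8.19 CPM, below every 30d library. The log2 fold change was 0.77 (SE 0.18, adjusted p = 0.00657, edgeR quasi-likelihood test), a fold of 1.70 with a 95% interval of 1.30 to 2.23. DESeq2's Wald test gave 0.76 with an adjusted p of 0.0762, which did not pass. Of its exon bases, 14.1% overlap *CG14102* on the opposite strand. The counting did not use strand, and by its rule reads wholly inside the overlap would go to neither gene. *CG14102* itself had a log2 fold change of 0.21 (adjusted p = 0.527, same edgeR test). *SREBP*, a regulator of lipid synthesis 298 bases from *Ir76a* on the same strand, rose by less than *Ir76a*, at 0.23 (adjusted p = 0.0499, same edgeR test). *TORIP*, 310 bases from *Ir76a* on its other side and on the opposite strand, was at 0.19 (adjusted p = 0.278, same edgeR test).

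The coreceptors with which these tuning receptors act did not pass the threshold. *Ir8a*, the partner of acid-sensing receptors, had 11, 5 and 10 counts at 30d and 12, 18 and 4 counts at 3d. Its log2 fold change was -0.48, with a 95% interval from -1.51 to 0.55, wide enough to hold a fall by more than the rise of *Ir75a*. *Ir25a*, the most widely used Ir coreceptor, had 54, 38 and 44 counts at 30d and 33, 36 and 60 counts at 3d (log2 fold change -0.03, interval -0.52 to 0.47). *Ir76b*, which also serves amine and taste receptors, had 64, 39 and 49 counts at 30d and 33, 46 and 49 counts at 3d (log2 fold change 0.15, interval -0.29 to 0.58). The direction of both turned when single libraries were left out. *Ir93a*, which acts in cooling and humidity sensing, had 5, 7 and 2 counts at 30d and 1, 3 and 3 counts at 3d and was not tested. Together the 4 coreceptors held 30.2 ± 6.07 CPM at 30d and 29.4 ± 4.36 CPM at 3d (SD, n = 3 each).

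Set against its partners within each library, *Ir76a* was higher at 30d without overlap. There were 1.07, 1.16 and 1.09 *Ir76a* counts per *Ir25a* count at 30d, against 0.758, 0.833 and 0.450 at 3d. The same held against *Ir76b*, with 0.906, 1.13 and 0.980 at 30d against 0.758, 0.652 and 0.551 at 3d. *Ir76a* was chosen here because it had been called higher, and neither coreceptor was called. These ratios restate that call and are no further result. For *Ir75a* and *Ir75b* together against *Ir8a* the ages overlapped, at 8.82, 24.6 and 11.6 at 30d and 1.75, 2.44 and 12.5 at 3d, with few *Ir8a* counts behind each value.

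**Figure D3:**
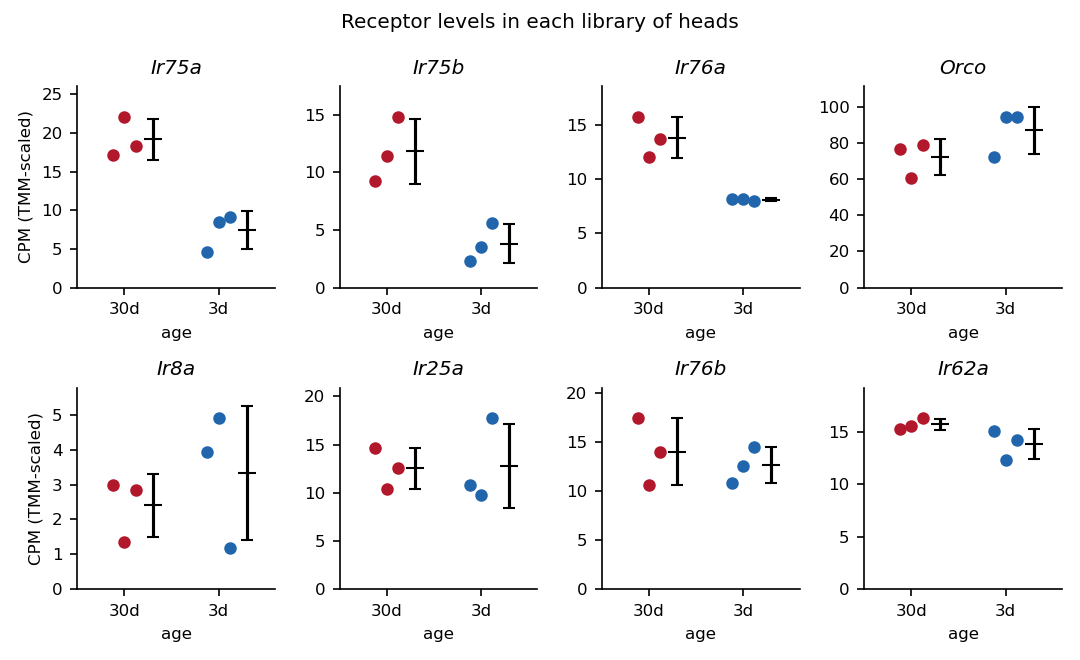
CPM of the 3 called receptor genes, *Orco*, the coreceptors *Ir8a*, *Ir25a* and *Ir76b*, and *Ir62a*, with 1 point per library, 30d (red) left of 3d (blue), and the mean with its SD beside the points. The ages separate clearly for *Ir75a*, *Ir75b* and *Ir76a*, narrowly for *Ir62a*, and overlap for the other 4 genes.

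*Orco* (FBgn0037324; chromosome 3R, dm6, 5407183 to 5412406, minus strand) was the most abundant receptor transcript. Per kb of exon it held 37.2 CPM at 30d and 44.9 CPM at 3d, and its lowest library lay above the highest library of any other receptor. *Orco* had 283, 222 and 277 counts at 30d, against 220, 347 and 320 counts at 3d. Replicate 1 of 3d was low, and it alone placed the 3d group within the range of the 30d group. *Orco* averaged 72.2 ± 10.1 CPM at 30d and 87.1 ± 13.0 CPM at 3d (SD, n = 3 each; log2 fold change -0.28, 95% interval -0.55 to -0.0036, adjusted p = 0.118, edgeR quasi-likelihood test). Without 3d replicate 1 it passed the threshold, at -0.39 (adjusted p = 0.0255), and likewise in the fit without a filter, at -0.28 (adjusted p = 0.0334), in which 21.7% of all genes were called. Under the other alternatives it did not pass. As a share of all receptor counts, *Orco* held 25.2, 22.8 and 26.6% at 30d, against 28.8, 32.2 and 31.4% at 3d. The total here includes *Ir75a*, *Ir75b* and *Ir76a*, and without those genes the ages overlapped, with shares of 29.2, 27.6 and 31.6% at 30d and 30.6, 34.5 and 34.0% at 3d.

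Relative to *Orco* in the same library, the summed counts of *Ir75a* and *Ir75b* were higher in every 30d library than in any 3d library. They had 0.343, 0.554 and 0.419 counts per *Orco* count at 30d, against 0.0955, 0.127 and 0.156 at 3d. *Ir76a* had 0.205, 0.198 and 0.173 counts per *Orco* count at 30d, against 0.114, 0.0865 and 0.0844 at 3d. *Ir75a*, *Ir75b* and *Ir76a* were chosen here because they had been called higher at 30d. Their ratios to *Orco* restate those calls and are no further result. The tuning Or genes, summed as a whole family and not picked by their calls, overlapped between the ages. They had 0.951, 1.13 and 0.903 counts per *Orco* count at 30d and 0.977, 0.885 and 0.828 at 3d.

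None of the tuning Or genes passed the threshold. Of the 8 Or genes tested, 0 were called by edgeR's quasi-likelihood test (1 at an unadjusted p under 0.05, *Orco*), beside 30.4% of all genes tested. DESeq2's Wald test called 0 of the 36 Or genes to which it gave an adjusted p (0 at an unadjusted p under 0.05). That test called 17.6% of all genes with an adjusted p. *Or63a* had the most counts after *Orco*, with 24, 34 and 23 at 30d and 29, 43 and 32 at 3d (log2 fold change -0.46, adjusted p = 0.125). It had been listed here among receptors known from the larva, and its counts in every library of adult heads go against that listing. The other 12 genes of that list had between 0 and 22 counts over the 6 libraries, and 9 of them had none, *Or45b* and *Or83a* being fully overlapped by other genes. *Or43b* had 27, 29 and 24 counts at 30d and 21, 29 and 26 counts at 3d, though 40.7% of its exon bases overlap *Cul1*. *Or59b*, a receptor for acetate esters, had 19, 20 and 12 counts at 30d and 25, 28 and 18 counts at 3d (log2 fold change -0.58, adjusted p = 0.129, edgeR quasi-likelihood test).

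Receptors for signals between flies were uneven among the 3d libraries. *Or67d*, the receptor for the male pheromone cis-vaccenyl acetate, had 19, 14 and 11 counts at 30d and 4, 20 and 9 counts at 3d. *Or47b*, which detects fatty acid odors of other flies, had 20, 13 and 14 counts at 30d and 6, 16 and 13 counts at 3d. Both were lowest in 3d replicate 1, and without it the log2 fold change of *Or67d* was -0.018, against 0.32 with all libraries. *Or65a* and *Or88a* had 23 and 4 counts in all. Receptors of the maxillary palp summed to 9.51 ± 1.33 CPM at 30d and 8.26 ± 1.34 CPM at 3d (SD, n = 3 each). Among them *Or85e* had 9, 8 and 11 counts at 30d and 7, 9 and 13 counts at 3d, and *Or71a* had 12, 4 and 8 counts at 30d and 4, 3 and 3 counts at 3d.

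**Figure D4:**
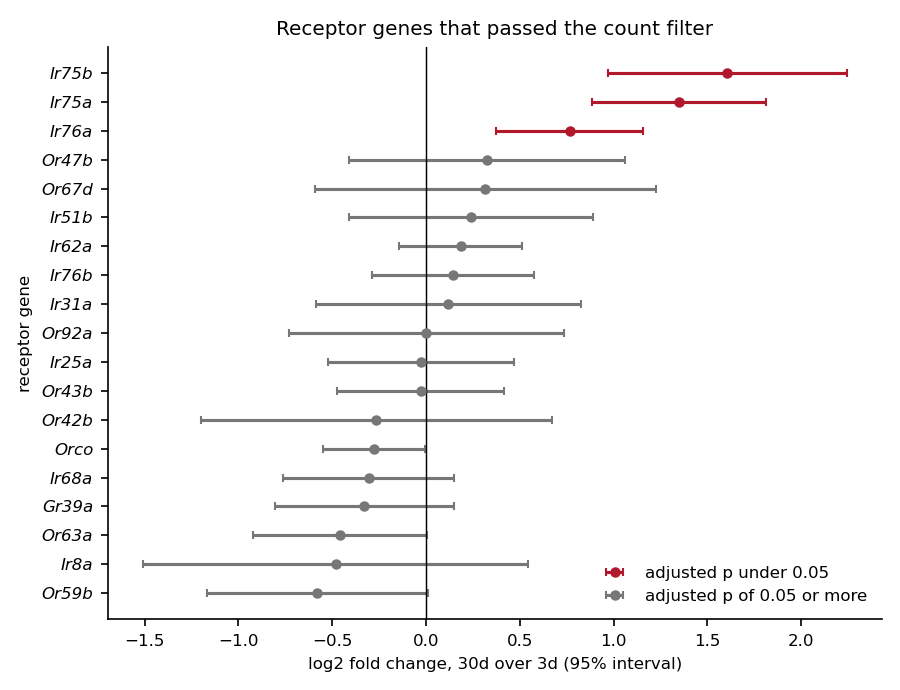
Log2 fold change of 30d over 3d with its 95% interval for the 19 receptor genes that passed edgeR's filter, in order of size, with those at an adjusted p under 0.05 in red. The intervals of *Ir75b*, *Ir75a* and *Ir76a* lie wholly above 0, and that of *Orco* lies just below it without passing after adjustment.

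Among the Ir genes that were not called, *Ir62a* was the highest per kb of exon, at 8.61 CPM per kb at 30d and 7.60 CPM per kb at 3d. It had 56, 57 and 57 counts at 30d and 46, 45 and 48 counts at 3d. The ages just failed to overlap after scaling, but the log2 fold change of 0.19 had an adjusted p of 0.397 (edgeR quasi-likelihood test). *Ir68a*, which acts in humidity sensing, leaned the other way, with 31, 21 and 27 counts at 30d and 28, 32 and 31 counts at 3d (log2 fold change -0.31, adjusted p = 0.303). *Ir51b* had 22, 15 and 20 counts at 30d and 9, 21 and 15 counts at 3d. *Ir31a*, an acid receptor of the antenna, had 10, 14 and 11 counts at 30d and 8, 13 and 9 counts at 3d. *Ir64a*, which takes part in acid avoidance, and *Ir40a*, which acts in sensing dry air, were even lower and close between the ages. They had 9, 8 and 9 counts and 9, 10 and 7 counts at 30d, against 8, 8 and 8 counts and 6, 7 and 12 counts at 3d.

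In order of level per kb of exon over all 6 libraries, *Orco* (41.0 CPM per kb) was followed by *Ir62a* (8.10), *Ir75a* (6.70), *Ir76b* (5.77), *Or43b* (5.26), *Ir76a* (5.20), *Or63a* (5.15) and *Ir75b* (4.31). Only the step from *Orco* to *Ir62a* was larger than the spread between libraries, and every later pair of neighbors among the first 20 genes overlapped. Exon length included bases that overlap other genes, as in *Or43b* and *Ir76a*, and such genes may stand too low in this order. These levels pool the ages, and the places of the called genes depend on age. *Ir75a* held 9.67 CPM per kb at 30d, second to *Orco* by the mean, and 3.73 CPM per kb at 3d. Its 30d libraries (8.64 to 11.1 CPM per kb) overlapped those of *Ir62a* (8.36 to 8.93). *Ir75b* held 6.52 CPM per kb at 30d and 2.10 CPM per kb at 3d, and *Ir76a* held 6.55 CPM per kb at 30d and 3.85 CPM per kb at 3d.

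Of the 3 family sums, that of the Ir genes was the one in which the libraries of the ages did not overlap. The 66 Ir genes held 127, 114 and 122 CPM at 30d, against 85.5, 92.9 and 103 CPM at 3d. The mean was 121 ± 6.77 CPM at 30d and 93.8 ± 8.70 CPM at 3d (SD, n = 3 each), and the ratio of the group totals was 1.29, with an exact binomial interval of 1.19 to 1.40 for counting error. Most of this difference lay in the 3 called genes. They made up 33.0, 40.0 and 38.2% of the Ir counts at 30d, against 17.6, 21.7 and 22.1% at 3d. Without them, the remaining 63 Ir genes summed to 76.5 ± 8.45 CPM at 30d and 74.4 ± 5.04 CPM at 3d, an alternative chosen after the values were seen. The 10 other antennal Irs of the list summed to 18.8 ± 1.48 CPM at 30d and 19.3 ± 1.34 CPM at 3d.

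The 61 Or genes summed to 150, 129 and 150 CPM at 30d and 143, 178 and 173 CPM at 3d. These ranges overlapped, again through 3d replicate 1. The ratio of the totals was 0.863, with an interval of 0.805 to 0.925 that covers counting error only. Without *Orco* the Or genes held 70.9 ± 2.48 CPM at 30d and 77.5 ± 6.64 CPM at 3d (SD, n = 3 each), and the interval of the ratio, 0.823 to 1.01, held 1. No test was made of any sum, since the members were chosen with results known, and an exact permutation test of 3 libraries against 3 cannot go below 0.1.

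**Figure D5:**
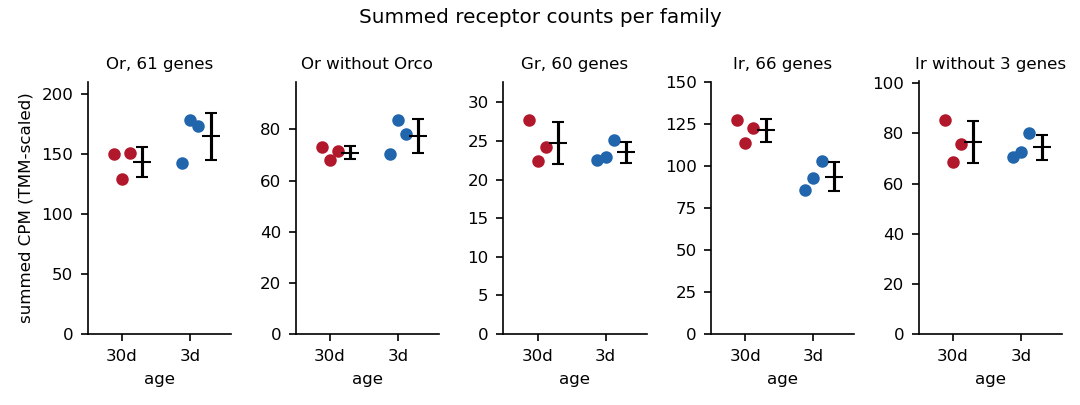
Summed CPM per library of the Or family, the Or family without *Orco*, the Gr family, the Ir family and the Ir family without *Ir75a*, *Ir75b* and *Ir76a*, 30d (red) left of 3d (blue), with the mean and its SD beside the points. The ages separate only in the sum of all 66 Ir genes.

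The Gr family was the least abundant, with 507 counts over all 60 genes and 6 libraries, 8.45% of all receptor counts. Its sum was 24.8 ± 2.71 CPM at 30d and 23.5 ± 1.38 CPM at 3d (SD, n = 3 each). *Gr39a*, a bitter and courtship receptor with several isoforms, gave 27.4% of these counts, with 20, 20 and 24 counts at 30d and 22, 28 and 25 counts at 3d. It was the single Gr gene tested (log2 fold change -0.33, adjusted p = 0.307, edgeR quasi-likelihood test). Thus edgeR called 0 Gr genes, with 0 at an unadjusted p under 0.05, beside its 30.4% over all genes tested. DESeq2's Wald test called 0 of the 12 Gr genes to which it gave an adjusted p, against its 17.6% over all genes.

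The better-known taste and gas receptors rested on few reads at both ages. *Gr28b*, which serves in warmth and light sensing, had 6, 8 and 9 counts at 30d and 5, 5 and 11 counts at 3d. The bitter receptors *Gr32a*, *Gr66a* and *Gr33a* had 22, 13 and 10 counts at 30d and 22, 8 and 8 counts at 3d over the 3 libraries of each age. *Gr63a*, a subunit of the carbon dioxide receptor, had 12 counts at 30d and 13 counts at 3d, and its partner *Gr21a* had 4 counts at 30d and 6 counts at 3d. The sugar receptors *Gr64f* and *Gr61a* had 16 and 10 counts at 30d and 11 and 9 counts at 3d. All 9 sweet receptors together held 45 counts at 30d and 29 counts at 3d, a ratio of 1.45 with a counting interval of 0.887 to 2.39. In this sweet sum the libraries ran from 3.55 to 4.85 CPM at 30d and from 1.91 to 3.55 CPM at 3d. The lowest 30d library and the highest 3d library were level, and the counting interval held 1.

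The number of receptor genes seen did not separate the ages. With 1 count or more, 107, 101 and 90 of the 187 genes were detected at 30d, and 97, 100 and 100 at 3d. Brought to the depth of the smallest library, the expected numbers were 104, 97.7 and 88.5 at 30d and 97.0, 95.4 and 97.5 at 3d. Over the 144 genes with a count, the mean CPM was higher at 30d in 70 and higher at 3d in 74, and 48.1% of all genes with a count were higher at 30d. The libraries of the ages did not overlap in 15 of the 144 genes, 6 higher and 9 lower at 30d. Among all genes with a count, 32.8% did not overlap, 15.8% higher and 16.9% lower at 30d. In the fit without a filter, the median log2 fold change of the 144 genes was -0.08, beside -0.04 for all 13698 genes.

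Other genes of the chemosensory system were called in both directions. Of 9 further chemosensory genes, 6 were tested, 1 was called higher and 1 lower. Among all genes tested, edgeR called 14.4% higher and 16.1% lower at 30d, and lists this short cannot be told apart from those shares. *pain*, a TRP channel of nociception, averaged 66.7 ± 5.45 CPM at 30d and 48.3 ± 6.17 CPM at 3d (SD, n = 3 each; log2 fold change 0.46, adjusted p = 0.00816, edgeR quasi-likelihood test). *Amt*, an ammonium transporter needed for ammonia responses in the antenna, had 44, 37 and 38 counts at 30d and 41, 63 and 52 counts at 3d (log2 fold change -0.49, adjusted p = 0.0400, same test). *Snmp1*, which acts with Or67d in pheromone detection, held 64.6 ± 5.76 CPM at 30d and 63.7 ± 8.15 CPM at 3d. The genes listed as regulators of olfactory neurons divided as well, with 1 of 4 tested called higher and 2 lower, beside the same shares over all genes. In whole heads the cells behind these values cannot be told. *pros* held 438 ± 64.5 CPM at 30d and 619 ± 80.1 CPM at 3d (SD, n = 3 each), well above *Orco*. *acj6*, a POU factor that selects Or genes, had a log2 fold change of -0.67 (adjusted p = 0.00358), *pros* of -0.50 (adjusted p = 0.00648), and *lz*, which acts in the eye and blood lineages too, of 1.03 (adjusted p = 4.52e-04, all edgeR quasi-likelihood test).

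Markers of other cell types moved between the ages alongside these values. The counts of calls below stand beside 14.4% called higher and 16.1% called lower over all genes tested by edgeR. Of 10 markers of antennal support cells tested, 5 were called lower and 0 higher, among them the odorant-binding protein genes *Obp83a* (log2 fold change -0.74) and *lush* (-0.49), while the summed level of all 11 markers found overlapped, at 2829 to 3487 CPM at 30d and 2621 to 3555 CPM at 3d. Between 62.9 and 73.8% of that sum was *Obp19d* (log2 fold change 0.22, not called), and the other 10 markers summed to 740 to 956 CPM at 30d and 947 to 1312 CPM at 3d, ranges that still touched. Of 8 neuron markers, 7 were called lower and 0 higher, with a sum of 5936 to 6189 CPM at 30d and 8559 to 10548 CPM at 3d. Of 7 muscle markers tested, 6 were called lower and 0 higher (2231 to 2292 CPM at 30d, 3484 to 5212 CPM at 3d). Of 5 glia markers, 3 were called lower and 0 higher (2312 to 2388 CPM at 30d, 2791 to 3182 CPM at 3d), and of 7 photoreceptor markers 3 were called lower and 0 higher, with sums that overlapped. Most of the photoreceptor sum was *ninaE*, at 31189 ± 3353 CPM at 30d and 25077 ± 3431 CPM at 3d (SD, n = 3 each). This gene had a log2 fold change of 0.31 and was not called. Fat body markers were mixed, with 1 of 3 tested called higher (*Npc2b*, log2 fold change 0.33) and 0 lower, and *Lsp2* at -0.78, not called. Their sum was 5531 to 6909 CPM at 30d and 5039 to 5410 CPM at 3d. Most of it was *apolpp*, at 6217 ± 752 CPM at 30d and 5119 ± 188 CPM at 3d (SD, n = 3 each). This gene had a log2 fold change of 0.28 and was not called. The 6 markers tested of Johnston's organ, the hearing organ of the antenna, had log2 fold changes from -0.50 to 0.60, none past the threshold, and the sums of the list overlapped (38.2 to 49.1 CPM at 30d, 43.6 to 49.9 CPM at 3d). Among the markers of the support cells, 0 were without counts, and the part of cell composition in the receptor values was not tested.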

How the data were processed

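Polyadenylated RNA of heads was sequenced from a single end, and the authors mapped it to dm6 by STAR, then used HTSeq in strict intersection mode, ignoring strand, to assign reads to genes. The deposited values are raw read counts per FlyBase gene, with no normalization, and 0 sample columns were left unused. The annotation release is not given in the sources used here. Symbols, positions and exon lengths were read from Ensembl's gene models for dm6, which held 17356 of the 17492 identifiers.

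The ages were compared by edgeR 4.0.16 under R 4.3.3 (filterByExpr on age, minimum count 10, TMM scaling, two-sided quasi-likelihood test, Benjamini-Hochberg adjustment over 8773 genes, threshold 0.05). CPM used the TMM-scaled library sizes, and CPM per kb was divided by exon length, overlapped bases included. The alternatives were DESeq2's size factors, library size alone, the Wald test of DESeq2 1.42.0, all genes with 1 count, a stricter filter of 10 counts in each library, a replicate block and each library left out. Sums were also taken without their largest member and without genes of which over 10% of exon bases overlap another gene. Scripts were tested on simulated counts. Intervals of the ratios of summed counts, and floors, cover counting error only, as reads carry no molecular identifiers. Intervals of the fold changes of single genes came from the quasi-likelihood fit and include the spread between libraries. Tables and plots were made with Python 3.11.15, pandas 2.3.3, scipy 1.17.1 and matplotlib 3.10.9.

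The genes named were *Orco* and the 4 Ir coreceptors, every receptor called, the 8 members of each family with the most counts, and members of role groups by count. The members and lists were chosen with earlier results of these data known. No sequence is shown.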

Additional observations from a re-analysis of the deposited data

How the results depend on the processing

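*Ir75a* passed the threshold in all 12 alternative fits and *Ir75b* in all 11 that tested it. *Ir76a* passed in 11 of 12, the exception being DESeq2's Wald test, and with each library left out the log2 fold changes lay between 1.12 and 1.52, 1.37 and 1.98, and 0.66 and 0.86 for the 3 genes. *Orco* passed in 2 of 12. Genes near 0 changed sign. With library size alone, which raised the median over all tested genes by 0.077 on the log2 scale and the share of calls that were higher to 62.0%, against 47.2% with TMM, *Ir25a* was at 0.050 and *Or43b* at 0.049. *Or92a* was at -0.0077 with DESeq2's size factors, -0.0097 with its Wald test and -0.0041 without a filter. With each library left out, *Ir76b* ranged from -0.042 to 0.31, *Ir25a* from -0.20 to 0.29, *Or43b* from -0.081 to 0.022, *Or92a* from -0.18 to 0.26 and *Or67d* from -0.018 to 0.99.

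Among sums (log2 ratio of means, 30d over 3d), leaving out *Ir75a*, *Ir75b* and *Ir76a*, chosen after seeing the data, gave -0.10 for all receptors (0.037 with them), 0.0393 for the Irs (0.37), 0.0393 for the Irs without coreceptors (0.50) and -0.035 for the antennal Irs (0.72). Without the member with the most counts, the values were 0.23 for the Grs, 0.58 for the Irs without coreceptors, 0.31 for the larval Ors, 0.51 for the antennal Irs, -0.70 for the carbon dioxide Grs, 0.13 for the bitter Grs and 0.999 for the Gr28 genes. Library size alone gave 0.58 for the Irs without coreceptors. With at least 3 counts required, 57 receptor genes were detected per library at 30d and 55.7 at 3d, against 99.3 and 99 with 1 count.

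The labels do not say whether equal replicate numbers pair the libraries, which were treated as unpaired, and deviations of same-numbered libraries correlated at 0.0167 to 0.143, other pairs at -0.122 to 0.0970. With the replicate block the same 3 receptor genes were called, among 2907 calls in all against 2669 without it. Depth limits the rest: 168 of the 187 genes could not be tested with the filter.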
